A study of Mus musculus with 18 samples.

Results

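The genes that carry the signal of the T cell receptor were followed through 6 groups of sorted T cells from melanoma and spleen. A set of 43 genes was listed by name, and a gene was taken as measured if at least 3 of the 18 arrays detected a bead probe of that name, with detection p below 0.05. Of the 43, 41 genes were measured, with 88 such probes, among 14581 genes tested in all. They fell by role into 4 receptor chains, 6 kinases and CD45, 7 adaptors, 10 effectors and 14 inhibitors. No probe of Lck or Cd5 carried that name in the platform table used here, and both are not analysed here.

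Female C57BL/6 mice of the genotype Foxp3-GFP-DTR-CD90.1 carried B16F10 melanoma, a transplantable mouse line, from 50000 cells placed under the skin, and organs were taken once tumours had grown to about 10 mm. Cells were pooled and then sorted, so that all groups share the genotype and the tumour-bearing host, and 2.5 ng of RNA was amplified for Illumina BeadChips. The groups were tumour Treg, tumour CD8, tumour Tconv, spleen Treg, spleen CD8 and spleen Tconv, with 3 arrays each. Treg were sorted as CD4+CD25+Foxp3+ cells, Tconv as CD4+ cells without Foxp3 and CD8 as CD8+ cells without CD4, all of them negative for CD11b. Each of the 3 BeadChips held 1 array of every group, always in the same position, so a position effect and a group effect cannot be told apart. The labels do not tell if replicates came from different animals. P-values therefore measure only the spread between these samples, which may be technical.

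The receptor of a T cell has no enzyme of its own. When it binds antigen, Src family kinases phosphorylate its CD3 and zeta chains, the kinase ZAP-70 docks there and phosphorylates the adaptor LAT, and the complex built on LAT releases calcium and activates Ras, protein kinase C theta and the transcription factors NFAT, AP-1 and NF-kappaB. Phosphatases, ubiquitin ligases and diacylglycerol kinases end the signal, and Treg depend on the same receptor to acquire and keep their suppressive function.

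The promoter windows of 6 members are shown as examples of genes that differed, chosen after their values were seen: Rasgrp2, Ptpn6, Ptpn22 and Sla2 between tumour and spleen, and Themis and Trat1 between the populations. Each is the 250 bases before the gene start on the gene's own strand, from RefSeq on GRCm38.p6, with the outermost start taken where several are listed. Capitals mark matches on either strand to the letters GGAAA (the core that NFAT binds), TGANTCA (AP-1), CCGGAA (Ets) and TGTGGT (Runx). CCGGAA and GGAAA can overlap by shared letters.
Rasgrp2, chr19:6399625-6399874 (plus strand): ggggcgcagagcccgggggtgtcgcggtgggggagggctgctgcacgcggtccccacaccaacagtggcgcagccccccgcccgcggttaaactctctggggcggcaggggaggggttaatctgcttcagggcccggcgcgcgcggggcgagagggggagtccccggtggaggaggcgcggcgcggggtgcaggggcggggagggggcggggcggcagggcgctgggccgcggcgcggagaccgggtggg
Ptpn6, chr6:124738710-124738959 (minus strand): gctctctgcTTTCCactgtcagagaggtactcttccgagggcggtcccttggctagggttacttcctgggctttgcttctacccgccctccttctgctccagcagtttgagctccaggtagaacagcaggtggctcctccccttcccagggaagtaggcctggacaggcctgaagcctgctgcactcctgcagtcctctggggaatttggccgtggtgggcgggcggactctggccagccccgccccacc
Ptpn22, chr3:103859545-103859794 (plus strand): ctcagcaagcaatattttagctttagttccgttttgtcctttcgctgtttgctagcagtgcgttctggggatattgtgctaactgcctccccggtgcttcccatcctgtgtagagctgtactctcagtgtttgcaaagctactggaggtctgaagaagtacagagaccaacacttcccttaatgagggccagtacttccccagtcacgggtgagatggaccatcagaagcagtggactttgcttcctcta
Sla2, chr2:156887222-156887471 (minus strand): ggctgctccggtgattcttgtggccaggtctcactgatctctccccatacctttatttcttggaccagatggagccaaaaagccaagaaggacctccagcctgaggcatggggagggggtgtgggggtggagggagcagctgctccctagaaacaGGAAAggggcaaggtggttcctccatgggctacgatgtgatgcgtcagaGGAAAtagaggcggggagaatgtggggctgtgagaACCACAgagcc
Themis, chr10:28668110-28668359 (plus strand): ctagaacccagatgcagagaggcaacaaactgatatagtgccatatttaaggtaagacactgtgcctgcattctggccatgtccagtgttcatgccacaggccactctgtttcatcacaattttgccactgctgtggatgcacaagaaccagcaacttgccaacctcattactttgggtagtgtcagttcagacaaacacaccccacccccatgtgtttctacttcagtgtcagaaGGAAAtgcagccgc
Trat1, chr16:48772063-48772312 (minus strand): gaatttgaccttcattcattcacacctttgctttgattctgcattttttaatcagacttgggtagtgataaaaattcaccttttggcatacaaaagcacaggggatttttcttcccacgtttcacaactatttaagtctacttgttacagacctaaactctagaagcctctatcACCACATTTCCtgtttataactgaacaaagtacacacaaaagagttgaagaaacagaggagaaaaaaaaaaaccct

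Of the 41 measured genes, 35 had a window in this table, and Sh2d2a, Malt1, Nfatc1, Sla, Cd6 and Pag1 had none here. GGAAA stood in 24 of the 35 windows (68.6%) and in 55.6% of the 27025 windows of all genes. TGANTCA stood in 0 of the 35 and in 6.85% of all windows, CCGGAA in 4 (11.4%) against 12.3%, and TGTGGT in 3 (8.57%) against 14.2%. Among the windows printed, Rasgrp2 and Ptpn22 held none of these letters, Sla2 held GGAAA at 2 places and TGTGGT at 1, Trat1 held 1 of each, and Ptpn6 and Themis held GGAAA at 1 place. A match is a description of letters and not a site of binding.

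The sorted populations carried Cd4, Cd8b1 and Foxp3 by their labels, each with at least 1 probe, while Cd8a could not serve as a check. No Cd8a probe was detected on enough arrays to be kept, and in CD8 arrays its probes lay at 4.06 to 4.65 log2 intensity. The brightest Cd4 probe lay at 8.12 to 9.01 log2 intensity in Treg and Tconv arrays and at 4.15 to 4.54 in CD8 arrays, close to the lowest values of the scale. A Cd8b1 probe lay at 10.89 to 11.33 in CD8 arrays and at 5.35 to 7.46 in the others. A Foxp3 probe lay at 8.24 to 9.32 in Treg arrays and at 4.07 to 4.41 in the others. Other kept Foxp3 probes, among them the brightest, did not separate Treg from the other arrays, and 1 further Cd8b1 probe was not higher in CD8 arrays. By that brightest probe, Foxp3 differed between Treg and Tconv by -0.02 in tumour and 0.17 in spleen. The brightest probe of a gene thus need not be the one that follows its label. Between 38 and 45.2% of probes were detected on an array. Within a group, arrays had correlations of 0.913 to 0.972 over the genes tested, and genes are no independent replicates.

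Tumour and spleen samples also differed in genes of other cells. Of 18 measured macrophage and monocyte genes, 4 rose in tumour Treg, 5 in tumour CD8 and 4 in tumour Tconv, and 12 rose and 0 fell in the mean of the 3 populations. Their summed log2 level was 107.93 to 118.65, 115.69 to 119.94 and 106.47 to 121.58 in tumour Treg, CD8 and Tconv, against 80.93 to 99.81, 80.88 to 97.12 and 79.42 to 97.18 in the spleen samples. Itgam, which encodes the CD11b used to gate these cells out, was not detected in spleen Treg, tumour Tconv or spleen Tconv. It was detected on at least 1 array of tumour Treg, tumour CD8 and spleen CD8. Its mean difference of -0.05 was the lowest of the 18 genes, whose median was 1.45 and highest value 4.56. Of 6 erythroid genes, 5 fell in that mean, with a summed level of 24.82 to 36.61 over the tumour arrays, against 41.63 to 55.64 over the spleen arrays. Of 7 melanoma genes, 3 rose in tumour Treg and 3 in the mean. The summed melanoma level was 31.35 to 41.48 in tumour arrays, against 30.33 to 32.53 in spleen arrays, and Tyrp1 was not detected in any spleen group. Of 5 neutrophil genes 1 rose in the mean, Mmp9, whose difference was 2.82 in Treg (adjusted p = 1.27e-04), -0.09 in CD8 and 0.01 in Tconv. Mmp9 was also 2.68 higher in Treg than in Tconv of the tumour (adjusted p = 1.76e-04), and the difference between its effects in Treg and Tconv passed (2.81, adjusted p = 0.0197). In the mean 1 of 4 NK cell genes rose and 1 of 4 B cell genes fell. The part of such cells in the differences below was not tested. In these bulk samples, fewer cells of a type and less RNA per cell cannot be told apart.

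Across the 6 groups, by the median over their genes, the receptor chains were the most even of the roles and the inhibitors the most varied. The difference between a gene's highest and lowest group mean had a median of 0.17 log2 units over the receptor chains, 0.60 over the kinases and CD45, 0.65 over the adaptors, 0.58 over the effectors and 0.96 over the inhibitors. Among the receptor chains it was 0.11 for Cd3d, 0.19 for Cd3e and 0.14 for Cd3g, but 1.11 for Cd247. The median was 0.79 over all 41 genes, against 0.51 over all 14581 genes tested. Of the 41 genes, 27 passed the test in none of 10 comparisons, made with limma at an adjusted p under 0.05 over all genes tested, and 14 passed in at least 1. Per comparison, between 0.0411 and 5.21% of all genes passed. The share of all genes that passed in at least 1 was not computed, so the count of 14 does not set these genes apart.

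Averaged over the 3 populations, 10 of the 41 genes differed between tumour and spleen (24.4%), against 5.21% of all genes tested. Ptpn22, Sla2, Malt1, Cblb and Sh2d2a rose, where 3.45% of all genes did, and Rasgrp2, Ptpn6, Dgkz, Dgka and Rasgrp1 fell, where 1.76% did. Within single populations, 3 of 41 passed in Treg (7.32%, against 2.44% of all genes), 3 in CD8 (7.32%, against 1.17%) and 2 in Tconv (4.88%, against 1.19%). In Treg 1 rose and 2 fell, against 1.73% and 0.713% of all genes. In CD8 2 rose and 1 fell, against 0.878% and 0.288%, and in Tconv 1 rose and 1 fell, against 0.994% and 0.192%. The 3 arrays of tumour and the 3 of spleen did not overlap for 14 genes in Treg (34.1%, against 19.9% of all genes), 12 in CD8 (29.3%, against 13.5%) and 12 in Tconv (29.3%, against 14.7%). The median difference over the 41 genes was -0.03 in Treg, 0.01 in CD8 and 0.01 in Tconv, and the medians over all genes were 0, -0.01 and -0.01.

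The split between rises and falls depended on the scaling of the arrays. Under median scaling 5 rises and 3 falls remained in the mean, and with that median taken over all probes there were 6 rises and 1 fall. Over all 14581 genes, the mean had 503 rises and 257 falls in the reported fit. It had 416 and 273 under median scaling, and 668 and 72 with that median over all probes. Under median scaling the median difference over all genes was -0.26 in Treg and -0.14 in the mean, and a gene's change under it is given relative to that median where it matters below.

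**Figure D1:**
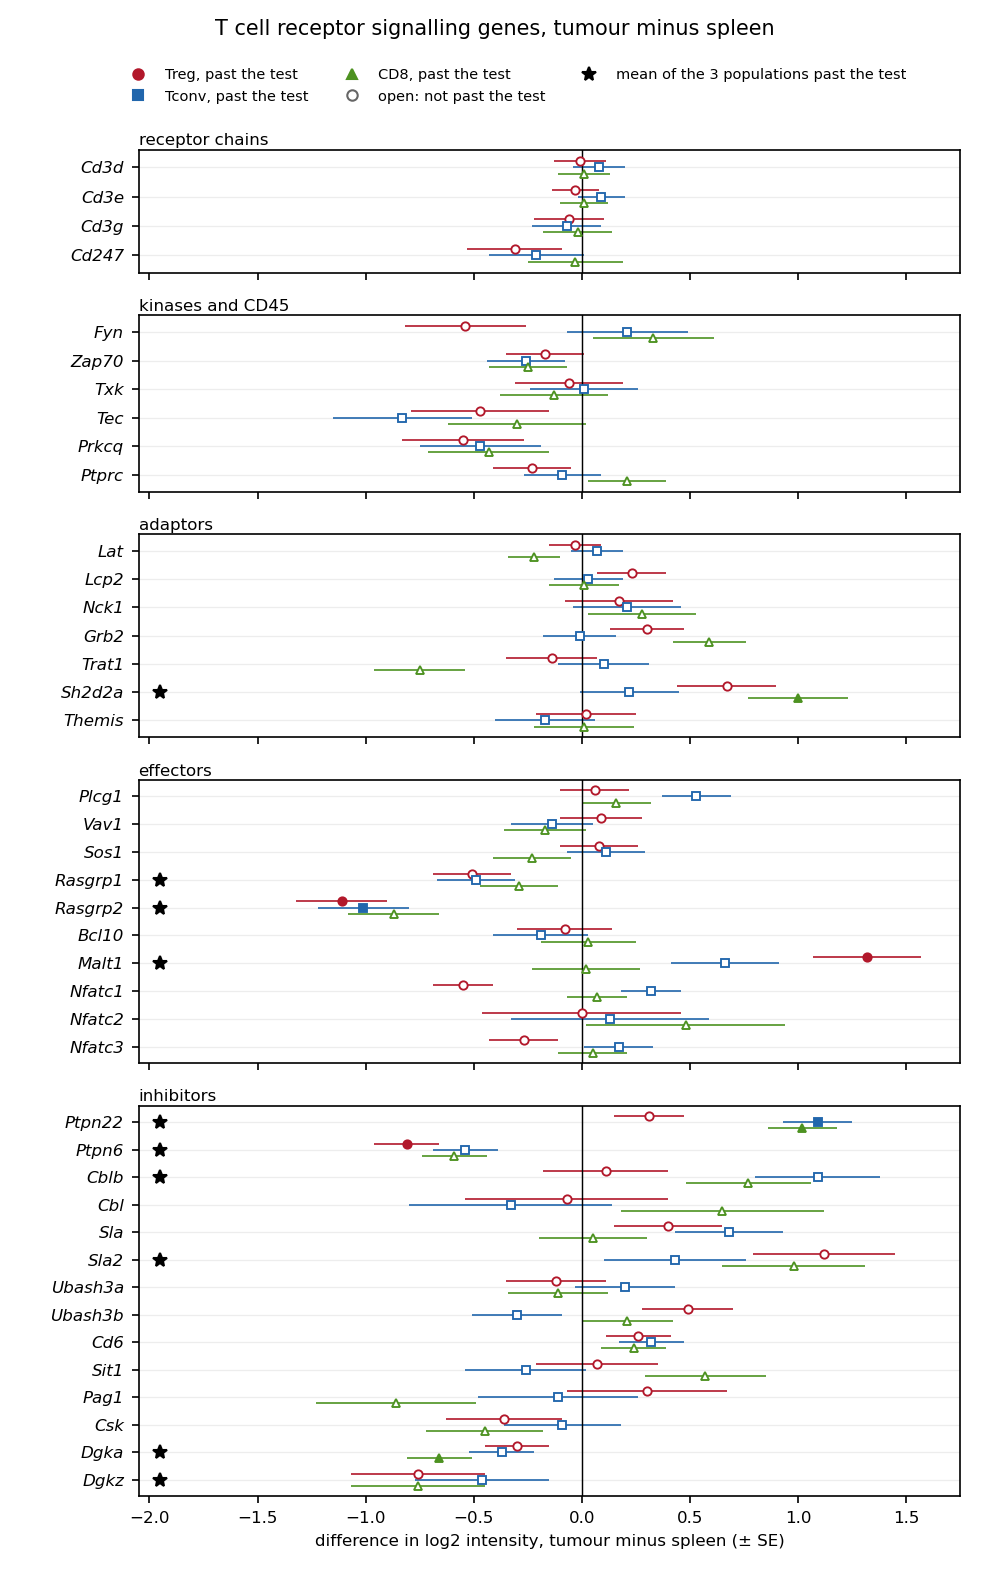
Difference in log2 intensity between tumour and spleen (horizontal axis, ± SE) for the 41 measured genes by role, in Treg, CD8 and Tconv, with filled symbols past the test and stars where the mean of the 3 populations passed. The 3 CD3 chains sit within 0.09 of 0 in every population, while Rasgrp2 lies at -0.87 or lower and Ptpn6 at -0.54 or lower in each.

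The CD3 chains, which hold the receptor at the surface and carry the phosphorylation sites, had nearly the same level in every group. Cd3e had 10.39, 10.42 and 10.21 log2 intensity in tumour Treg, against 10.39, 10.34 and 10.38 in spleen Treg. It had 10.28, 10.11 and 10.21 in tumour CD8, against 10.15, 10.18 and 10.23 in spleen CD8. In both populations the tumour and spleen arrays overlapped. For Cd3d, Cd3e and Cd3g the tumour minus spleen difference ran from -0.07 to 0.09 over the 3 populations, and its 95% intervals lay between -0.42 and 0.33. Of the 4 receptor chains, 0 passed limma's test between tumour and spleen, and 0 had an unadjusted p under 0.05, in any population or in the mean. As 1.17 to 5.21% of all genes passed there, 0 of 4 called does not set this role apart. Cd247 differed by -0.31 in Treg, and under median scaling by -0.18, which is 0.08 above the median of all genes.

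Cd247 encodes the zeta chain, which holds most of the phosphorylation sites of the receptor, and it was the only receptor chain past a test. It had 7.49, 8.25 and 8.35 in spleen CD8, against 8.97, 9.33 and 9.04 in spleen Tconv, which do not overlap. It was lower in CD8 by a difference of -1.08 ± 0.22 (adjusted p = 0.0371). Without spleen CD8 replicate 1 or any 1 of the 3 spleen Tconv arrays the call ended, with an adjusted p of up to 0.141, as it did in a fit of only these arrays (adjusted p = 0.367) and with the mean of its probes (adjusted p = 0.122). In tumour, Cd247 had 8.10, 8.07 and 7.82 in CD8, against 9.14, 8.88 and 8.68 in Tconv, a difference of -0.90 ± 0.22 that did not pass (adjusted p = 0.124). With the mean of its probes Cd247 passed in tumour, both for CD8 against Tconv (-0.54, adjusted p = 0.0325) and for Treg against Tconv (-0.43, adjusted p = 0.0408, where the brightest probe had -0.79 and 0.0812). Treg, at 7.72, 8.31 and 8.28 in tumour and 8.39, 8.59 and 8.27 in spleen, overlapped with CD8 and lay below Tconv in both tissues. A dimmer Cd247 probe, with a mean of 4.63, differed between spleen CD8 and spleen Tconv by 0.06 ± 0.21.

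None of the 6 kinases and CD45 passed limma's test in any of the 10 comparisons, with up to 2 of them at an unadjusted p under 0.05 in a comparison. Between 0.0411 and 5.21% of all genes passed per comparison, so 0 of 6 does not set this role apart. Zap70, the kinase that docks on the phosphorylated chains, had 7.48, 7.54 and 7.44 in tumour Treg, against 7.90, 7.54 and 7.53 in spleen Treg. Its tumour minus spleen differences were -0.17 in Treg, -0.25 in CD8 and -0.26 in Tconv, each ± 0.18. For the phosphatase CD45, encoded by Ptprc, which frees Src kinases from their inhibitory phosphate, the differences were -0.23, 0.21 and -0.09. The mean differences of Tec, a kinase of the family that activates phospholipase C, and of Prkcq, which encodes protein kinase C theta, were -0.53 ± 0.19 (adjusted p = 0.130) and -0.48 ± 0.16 (adjusted p = 0.114).

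Tec had the widest range between single arrays among the 41 genes, 3.02 log2 units. It had 4.73, 5.77 and 5.52 in tumour Treg, 6.44, 7.01 and 7.75 in tumour CD8 and 5.78, 6.02 and 6.66 in tumour Tconv. In spleen it had 5.92, 5.82 and 5.68 in Treg, 7.03, 7.62 and 7.46 in CD8 and 6.86, 6.97 and 7.12 in Tconv. The spleen Treg arrays thus lay below all spleen Tconv arrays, with a difference of -1.18 ± 0.32 and an adjusted p of 0.104, which became 0.0341 with the BeadChip as a replicate block and 0.0153 in a fit of only these arrays. Fyn, a Src family kinase, had differences of -0.54 in Treg, 0.33 in CD8 and 0.21 in Tconv, none past the test. Txk, another kinase of the Tec family, differed by -0.06, -0.13 and 0.01.

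Among the 7 adaptors, Sh2d2a rose in tumour, while Themis and Trat1 set the populations apart. Sh2d2a encodes TSAd, an adaptor that binds the kinase Lck and is induced in activated T cells. It had 8.74, 8.03 and 8.31 in tumour CD8, against 7.09, 7.76 and 7.21 in spleen CD8, and 8.61, 8.50 and 8.24 in tumour Treg, against 7.87, 7.63 and 7.84 in spleen Treg. In both populations every tumour array lay above every spleen array. In Tconv, with 7.69, 8.12 and 8.27 in tumour against 7.97, 7.44 and 8.00 in spleen, the groups overlapped. The rise passed in CD8 (1.00 ± 0.23, 2.01-fold, adjusted p = 0.0479) and in the mean (0.63 ± 0.13, adjusted p = 0.00979), and the difference was 0.67 ± 0.23 in Treg (adjusted p = 0.196) and 0.22 ± 0.23 in Tconv. A second Sh2d2a probe, detected on 7 arrays with a mean of 4.28, had a mean difference of 0.10 ± 0.13 that did not pass. With the average of both probes the values were 0.55 in CD8 (adjusted p = 0.189) and 0.37 in the mean (adjusted p = 0.0470). The CD8 call held under 1 of 9 alternatives, and it ended without any 1 of 4 CD8 arrays (tumour replicates 1 and 3, spleen replicates 1 and 3; adjusted p up to 0.173) and with the replicate block (adjusted p = 0.0776). The mean held without each single array, with adjusted p up to 0.0254. It ended when all arrays of BeadChip 1, 2 or 3 were left out (adjusted p = 0.0659, 0.0546 and 0.147).

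Themis, an adaptor first known from thymocyte selection, was low in Treg of both tissues. It had 4.76, 4.49 and 4.82 in tumour Treg, against 6.42, 5.67 and 6.42 in tumour Tconv. In spleen it had 4.21, 4.73 and 5.08 in Treg, the first of them not detected, against 6.09, 6.40 and 6.53 in Tconv. No Treg array reached a Tconv array. The difference was -1.48 ± 0.23 in tumour (adjusted p = 0.00160) and -1.67 ± 0.23 in spleen (adjusted p = 7.40e-04), and both held without each single array, with adjusted p up to 0.0122 and 0.00573. The tumour call missed the threshold when only these arrays were fitted (adjusted p = 0.0506), and the spleen call when the scaling median was taken over all probes (adjusted p = 0.0535). With a whole BeadChip left out, the tumour call ended without BeadChip 3 (adjusted p = 0.0749) and the spleen call without BeadChip 2 (adjusted p = 0.0591). CD8 cells had 6.23, 6.50 and 6.62 in tumour and 6.40, 6.41 and 6.51 in spleen, which overlaps with Tconv.

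Trat1 encodes TRIM, a transmembrane adaptor that associates with the receptor. Its arrays read 5.64, 5.69 and 5.56 in tumour CD8, against 8.24, 7.70 and 7.77 in tumour Tconv. Spleen CD8 had 6.01, 6.66 and 6.48, against 7.61, 7.92 and 7.87 in spleen Tconv. The groups were far apart in both tissues, with a difference of -2.27 ± 0.21 in tumour (adjusted p = 2.98e-05) and of -1.42 ± 0.21 in spleen (adjusted p = 0.00214). Both calls held without each single array, though the spleen call ended in a fit of only those arrays (adjusted p = 0.129). The spleen call also ended without the arrays of BeadChip 2 (adjusted p = 0.117) or BeadChip 3 (adjusted p = 0.111). A dimmer Trat1 probe passed as well, at -0.84 ± 0.14 in tumour and -1.28 ± 0.14 in spleen. Tumour CD8 lay below spleen CD8 on every array by -0.75 ± 0.21, which did not pass (adjusted p = 0.117). Treg, with 6.85 to 7.59 in tumour and 7.22 to 7.48 in spleen, lay between CD8 and Tconv.

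**Figure D2:**
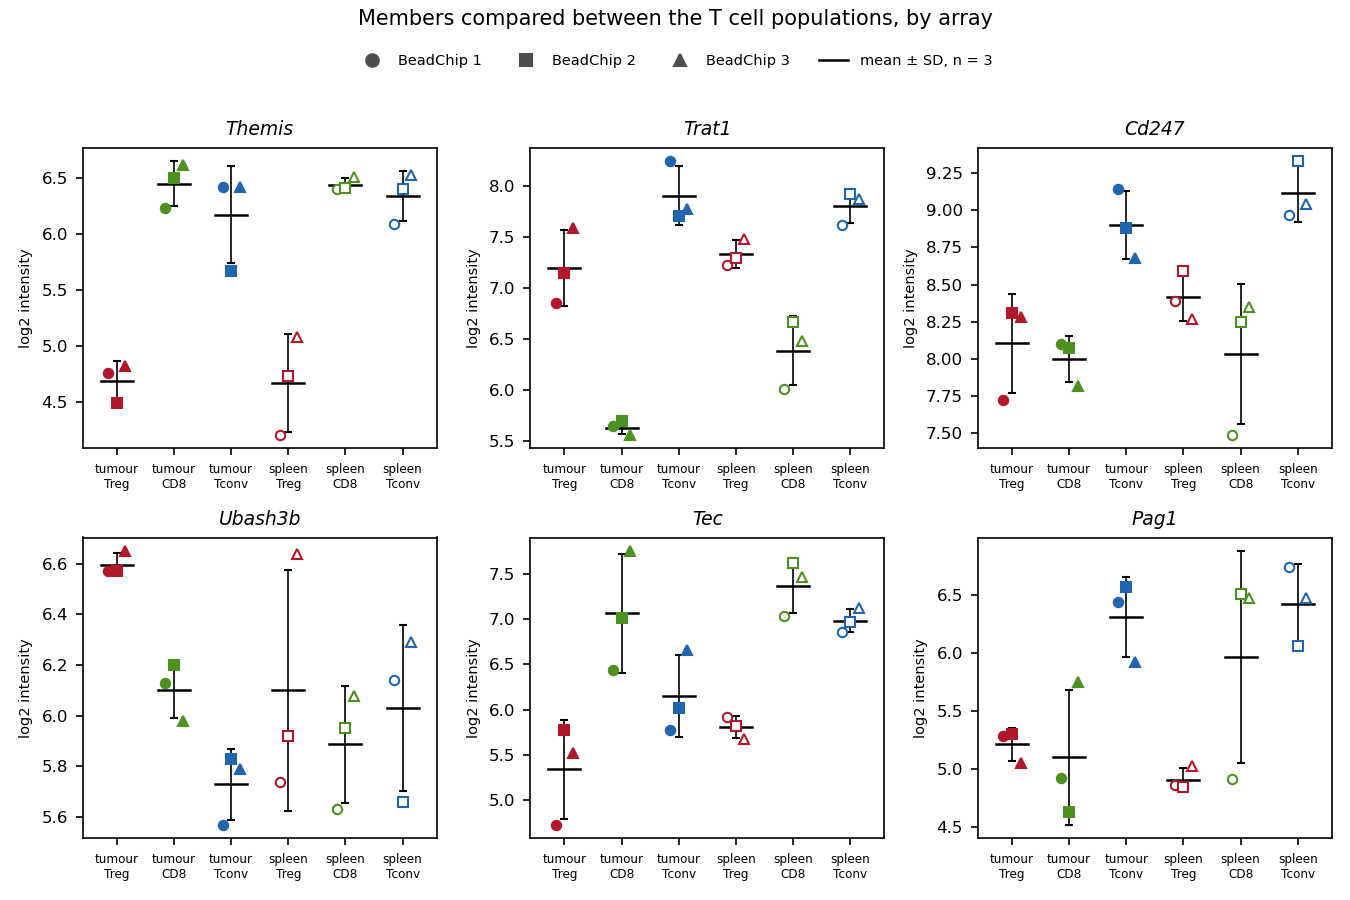
Log2 intensity (vertical axis) of 6 members on each array by tissue and population, with mean ± SD of 3 arrays and a symbol for each BeadChip. Themis in Treg and Trat1 in CD8 lie below every Tconv array of the same tissue, while Tec and Pag1 passed in none of the comparisons.

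The other adaptors showed no difference past the test. Lat, the scaffold on which the signalling complex forms, had 8.17, 8.15 and 8.24 in tumour Treg, against 8.28, 8.26 and 8.12 in spleen Treg, and its differences were -0.03 in Treg, -0.22 in CD8 and 0.07 in Tconv. Those of Lcp2, which encodes SLP-76, the partner of LAT, were 0.23, 0.01 and 0.03, and those of Nck1, which links the receptor to actin, were 0.17, 0.28 and 0.21. Grb2, the adaptor that brings SOS to the membrane, had 7.99, 7.37 and 7.45 in tumour CD8, against 6.93, 7.05 and 7.07 in spleen CD8. That difference of 0.59 ± 0.17, on arrays that do not overlap, did not pass (adjusted p = 0.158).

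Among the 10 effectors, 2 exchange factors for small GTPases fell and Malt1 rose. Rasgrp2 encodes CalDAG-GEFI, which activates the GTPase Rap1 and through it integrins. It had 4.21, 4.36 and 4.21 in tumour Treg, with only the second detected, against 5.06, 5.74 and 5.29 in spleen Treg. In CD8 it had 4.53, 5.27 and 5.36 in tumour, against 5.86, 5.70 and 6.20 in spleen. Tumour Tconv had 5.02, 5.23 and 5.11, against 6.03, 6.12 and 6.25 in spleen Tconv. The tumour arrays lay below the spleen arrays in each population.

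For Rasgrp2 the fall was -0.99 ± 0.12 in the mean (adjusted p = 1.24e-04), a level 0.502 times that of spleen, and it held under each alternative and without each single array, at -1.07 to -0.36. By population it was -1.11 ± 0.21 in Treg (adjusted p = 0.00971), -0.87 ± 0.21 in CD8 (adjusted p = 0.0725, and 0.0445 with the replicate block) and -1.01 ± 0.21 in Tconv (adjusted p = 0.0289). The Treg call ended without spleen Treg replicate 2 (adjusted p = 0.0595) and in a fit of only the Treg arrays (adjusted p = 0.0525). It also ended without the arrays of BeadChip 2 (adjusted p = 0.218) or BeadChip 3 (adjusted p = 0.181). The Tconv call ended without any 1 of its 6 arrays (adjusted p up to 0.117) and under median scaling (-0.93, adjusted p = 0.0639). Because tumour Treg lay at the floor, the fold there is compressed. Within tumour, Rasgrp2 was also lower in Treg than in Tconv (-0.86 ± 0.21, adjusted p = 0.0430), a call that ended without any 1 of the 6 arrays (adjusted p up to 0.142) and under 5 of 9 alternatives. A dimmer Rasgrp2 probe had a mean difference of -0.51 ± 0.16 that did not pass (adjusted p = 0.0897). With the mean of both probes Rasgrp2 passed in CD8 (-1.02, adjusted p = 6.77e-04). The difference between tumour Treg and tumour Tconv did not pass there (-0.41, adjusted p = 0.135).

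Rasgrp1, which activates Ras downstream of diacylglycerol, had 8.24, 8.52 and 8.48 in tumour Treg, against 9.06, 8.87 and 8.85 in spleen Treg. Tumour Tconv had 8.73, 8.85 and 8.78, against 9.42, 9.08 and 9.33 in spleen Tconv. In CD8 the arrays overlapped, with 8.24, 8.01 and 8.72 in tumour against 8.76, 8.30 and 8.78 in spleen. The mean fell by 0.43 ± 0.10 (adjusted p = 0.0229), and a dimmer probe passed at -0.45 ± 0.10. The call ended without spleen Treg replicate 1 (adjusted p = 0.0507) and under median scaling (-0.42, adjusted p = 0.0703, and -0.23, adjusted p = 0.568, with that median over all probes). It also ended when all arrays of BeadChip 1, 2 or 3 were left out (adjusted p = 0.356, 0.0614 and 0.112).

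Malt1 encodes a paracaspase that, with BCL10, links the receptor to NF-kappaB and cleaves its own set of substrates. It had 7.61, 7.87 and 7.35 in tumour Treg, against 6.00, 6.37 and 6.50 in spleen Treg, and 7.33, 6.93 and 7.26 in tumour Tconv, against 6.82, 6.27 and 6.47 in spleen Tconv. In both, each tumour array exceeded all spleen arrays. CD8 arrays overlapped, with 6.61, 6.93 and 7.09 in tumour against 7.17, 6.21 and 7.18 in spleen. The rise was 1.32 ± 0.25 in Treg (2.49-fold, adjusted p = 0.00959) and 0.66 ± 0.15 in the mean (adjusted p = 0.0135), with differences of 0.02 ± 0.25 in CD8 and 0.66 ± 0.25 in Tconv (adjusted p = 0.382). The Treg call held under all 9 alternatives but ended without tumour Treg replicate 2 (adjusted p = 0.0516) or spleen Treg replicate 1 (adjusted p = 0.0550). It also ended when all arrays of BeadChip 1, 2 or 3 were left out (adjusted p = 0.152, 0.0743 and 0.101). So did the call in the mean (adjusted p = 0.0659, 0.122 and 0.119). Bcl10 itself differed by -0.08, 0.03 and -0.19 in Treg, CD8 and Tconv.

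The remaining effectors did not pass. Vav1, an exchange factor that binds SLP-76, differed by 0.09 in Treg, -0.17 in CD8 and -0.14 in Tconv. Plcg1 encodes the phospholipase that makes diacylglycerol and the calcium signal. It was not detected in Treg of either tissue, and read 4.96, 4.67 and 4.56 in tumour Tconv, against 4.17, 4.06 and 4.37 in spleen Tconv, of which only the last was detected. Of the NFAT factors, Nfatc2 differed by 0.00, 0.48 and 0.13 and Nfatc3 by -0.27, 0.05 and 0.17, while Sos1, an exchange factor for Ras, differed by 0.08, -0.23 and 0.11.

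Nfatc1, the NFAT factor that the calcium signal both activates and induces, had differences of opposite sign in the CD4+ populations, neither past the test. It had 7.58, 7.59 and 7.82 in tumour Treg, against 8.24, 8.10 and 8.30 in spleen Treg, and 7.88, 8.17 and 8.21 in tumour Tconv, against 7.75, 7.75 and 7.80 in spleen Tconv. The arrays of tumour lay below spleen in Treg and above it in Tconv. The Treg difference was -0.55 ± 0.14 (adjusted p = 0.0566). It passed with the replicate block (adjusted p = 0.0378), without background correction (-0.43, 0.0277), without the filter on dim probes (0.0416) and in the deposited value table (-0.41, 0.0381). The Tconv difference was 0.32 ± 0.14 (adjusted p = 0.483).

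The inhibitors, the role with the most genes, had 3 rises and 3 falls among 14 in the mean of the populations. That is 42.9% of them, against 5.21% of all genes (3.45% higher and 1.76% lower). The effectors had 1 rise and 2 falls among 10 (30%). Ptpn22 encodes a phosphatase that acts with CSK on the Src kinases and on ZAP-70. It had 7.69, 7.91 and 7.92 in tumour Tconv, against 6.85, 6.91 and 6.48 in spleen Tconv. In CD8 it had 8.25, 8.24 and 8.28 in tumour, against 7.40, 7.06 and 7.25 in spleen. In Treg it had 6.94, 7.24 and 7.38 in tumour, against 6.88, 6.69 and 7.06 in spleen. The groups stood apart in Tconv and CD8 and overlapped in Treg.

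The rise of Ptpn22 was 1.09 ± 0.16 in Tconv (2.13-fold, adjusted p = 0.00141), 1.02 ± 0.16 in CD8 (2.03-fold, adjusted p = 0.00268) and 0.81 ± 0.09 in the mean (adjusted p = 4.66e-05). These calls held without each single array, with adjusted p up to 0.0110 in Tconv and 0.0152 in CD8, and those within Tconv and CD8 ended when the median for scaling was taken over all probes or when only the arrays of the groups compared were fitted. The difference in Treg was 0.31 ± 0.16 and did not pass. Within tumour, Ptpn22 was lower in Treg than in Tconv by a difference of -0.66 ± 0.16 (adjusted p = 0.0324). That call ended with the replicate block (adjusted p = 0.0532), under median scaling (-0.57, adjusted p = 0.160, and -0.14, adjusted p = 0.861, with that median over all probes), in a fit of only these arrays (adjusted p = 0.143) and without any 1 of 4 arrays (tumour Treg replicates 1 and 2, tumour Tconv replicates 2 and 3; adjusted p up to 0.154).

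Sla2, which encodes an adaptor that guides CBL to the receptor chains and lowers their surface level, had 7.68, 7.60 and 7.74 in tumour Treg, against 6.94, 5.94 and 6.78 in spleen Treg. It had 7.88, 7.99 and 7.19 in tumour CD8, against 5.95, 7.35 and 6.82 in spleen CD8, and 7.27, 7.65 and 6.92 in tumour Tconv, against 6.85, 7.04 and 6.67 in spleen Tconv. The groups were apart in Treg and overlapped in CD8 and Tconv, and on every BeadChip the tumour array was above the spleen array of its population. The mean rose by 0.84 ± 0.19 (1.79-fold, adjusted p = 0.0172) and held without each single array, and a dimmer probe passed at 0.68 ± 0.18. The call in the mean ended when all arrays of BeadChip 1, 2 or 3 were left out (adjusted p = 0.133, 0.0796 and 0.109). No single population passed, with 1.12 ± 0.33 in Treg (adjusted p = 0.120), 0.98 ± 0.33 in CD8 and 0.43 ± 0.33 in Tconv.

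Its relative Sla gave different answers by probe. The brightest probe differed by 0.40 ± 0.25 in Treg, 0.05 ± 0.25 in CD8 and 0.68 ± 0.25 in Tconv and passed in none. A second probe, fitted beside all kept probes, rose in tumour Treg by 1.14 ± 0.19 (adjusted p = 0.00369) and in the mean by 0.74 ± 0.11 (adjusted p = 8.21e-04). That probe was also higher in tumour Treg than in tumour Tconv, by 1.17 ± 0.19 (adjusted p = 0.00300). With the mean of its kept probes, Sla was higher in Treg than in Tconv in both tissues. The difference was 0.82 in tumour (adjusted p = 0.00322) and 0.69 in spleen (adjusted p = 0.0163). The remaining probe had a mean difference of 0.29 ± 0.21 and did not pass.

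Cblb and Cbl encode ubiquitin ligases that mark signalling proteins for removal, and CBL-B is known to raise the threshold for activation without costimulation. Cblb had 8.77, 8.67 and 8.64 in tumour CD8, against 7.91, 7.52 and 8.32 in spleen CD8. Tumour Tconv had 8.53, 9.44 and 8.78, against 7.92, 7.35 and 8.19 in spleen Tconv. Both pairs were apart, while in Treg, at 9.12, 8.15 and 8.46 in tumour against 8.61, 8.53 and 8.26 in spleen, they overlapped. The mean rose by 0.66 ± 0.17 (adjusted p = 0.0323), a second probe passed at 0.63 ± 0.17, and the call ended without any 1 of 9 of the 18 arrays (adjusted p up to 0.0694): tumour Treg replicate 1, tumour CD8 replicates 1 and 2, tumour Tconv replicate 2, spleen Treg replicates 2 and 3, spleen CD8 replicates 1 and 2 and spleen Tconv replicate 2. The Cblb call also ended when all arrays of BeadChip 1, 2 or 3 were left out (adjusted p = 0.150, 0.163 and 0.134). Cbl differed by -0.07, 0.65 and -0.33 in Treg, CD8 and Tconv, each ± 0.47.

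Ptpn6 encodes SHP-1, a phosphatase of all blood cell lineages that dampens antigen receptor signals. It had 7.93, 7.52 and 7.44 in tumour Treg, against 8.67, 8.33 and 8.33 in spleen Treg. In CD8 it had 8.37, 8.26 and 8.25 in tumour, against 8.86, 8.80 and 8.98 in spleen, and in Tconv 8.00, 8.01 and 7.86 in tumour, against 8.32, 8.40 and 8.77 in spleen. No tumour array reached a spleen array of its population. The fall passed in Treg (-0.81 ± 0.15, adjusted p = 0.00849) and in the mean (-0.65 ± 0.09, adjusted p = 3.17e-04), where a second probe passed at -0.77 ± 0.14, and the differences were -0.59 ± 0.15 in CD8 (adjusted p = 0.0983) and -0.54 ± 0.15 in Tconv (adjusted p = 0.137). In Treg the call ended under median scaling, at -0.69 (adjusted p = 0.101), which is 0.43 below the median of all genes, and at -0.30 (adjusted p = 0.617) with the scaling median over all probes. It also ended with the Treg arrays fitted alone (adjusted p = 0.10) and without spleen Treg replicate 1 (adjusted p = 0.0516). Without the arrays of BeadChip 2 (adjusted p = 0.224) or BeadChip 3 (adjusted p = 0.151) the Treg call ended too. The mean ended only with the scaling median over all probes (adjusted p = 0.118).

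Dgka and Dgkz encode kinases that consume diacylglycerol and so limit the Ras branch. Dgka had 8.38, 8.32 and 8.60 in tumour CD8, against 9.32, 8.92 and 9.04 in spleen CD8. Tumour Tconv had 8.81, 8.96 and 9.02, against 9.22, 9.27 and 9.42 in spleen Tconv, and neither pair overlapped. In Treg the arrays overlapped, at 8.31 to 8.65 in tumour against 8.61 to 8.98 in spleen. The Treg difference was -0.30, and under median scaling -0.17, which is 0.09 above the median of all genes. The fall passed in CD8 (-0.66 ± 0.15, adjusted p = 0.0428) and in the mean (-0.44 ± 0.08, adjusted p = 0.00487). The CD8 call ended with the replicate block (adjusted p = 0.0695), under 6 of 9 alternatives in all and without any 1 of 4 arrays (tumour CD8 replicates 1 and 2, spleen CD8 replicates 1 and 3; adjusted p up to 0.151), while the mean held without each single array and ended with the scaling median over all probes (-0.25, adjusted p = 0.418). Without the arrays of BeadChip 1 (adjusted p = 0.0950) or BeadChip 2 (adjusted p = 0.110) the call in the mean ended. A second Dgka probe, at -0.48 ± 0.13, did not pass (adjusted p = 0.0528).

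Dgkz had 6.99, 7.69 and 7.66 in tumour Treg, against 8.15, 8.46 and 7.99 in spleen Treg, the only population in which its arrays were apart. The mean was -0.66 ± 0.18 (adjusted p = 0.0458), and a second probe passed at -0.64 ± 0.13 (adjusted p = 0.00930). Of the 18 arrays, leaving out any 1 of 14 ended the call of the brightest probe, with adjusted p up to 0.0963, as did the replicate block (adjusted p = 0.0518). The 4 arrays whose removal kept it were tumour CD8 replicate 1, spleen Tconv replicate 3 and spleen CD8 replicates 2 and 3.

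**Figure D3:**
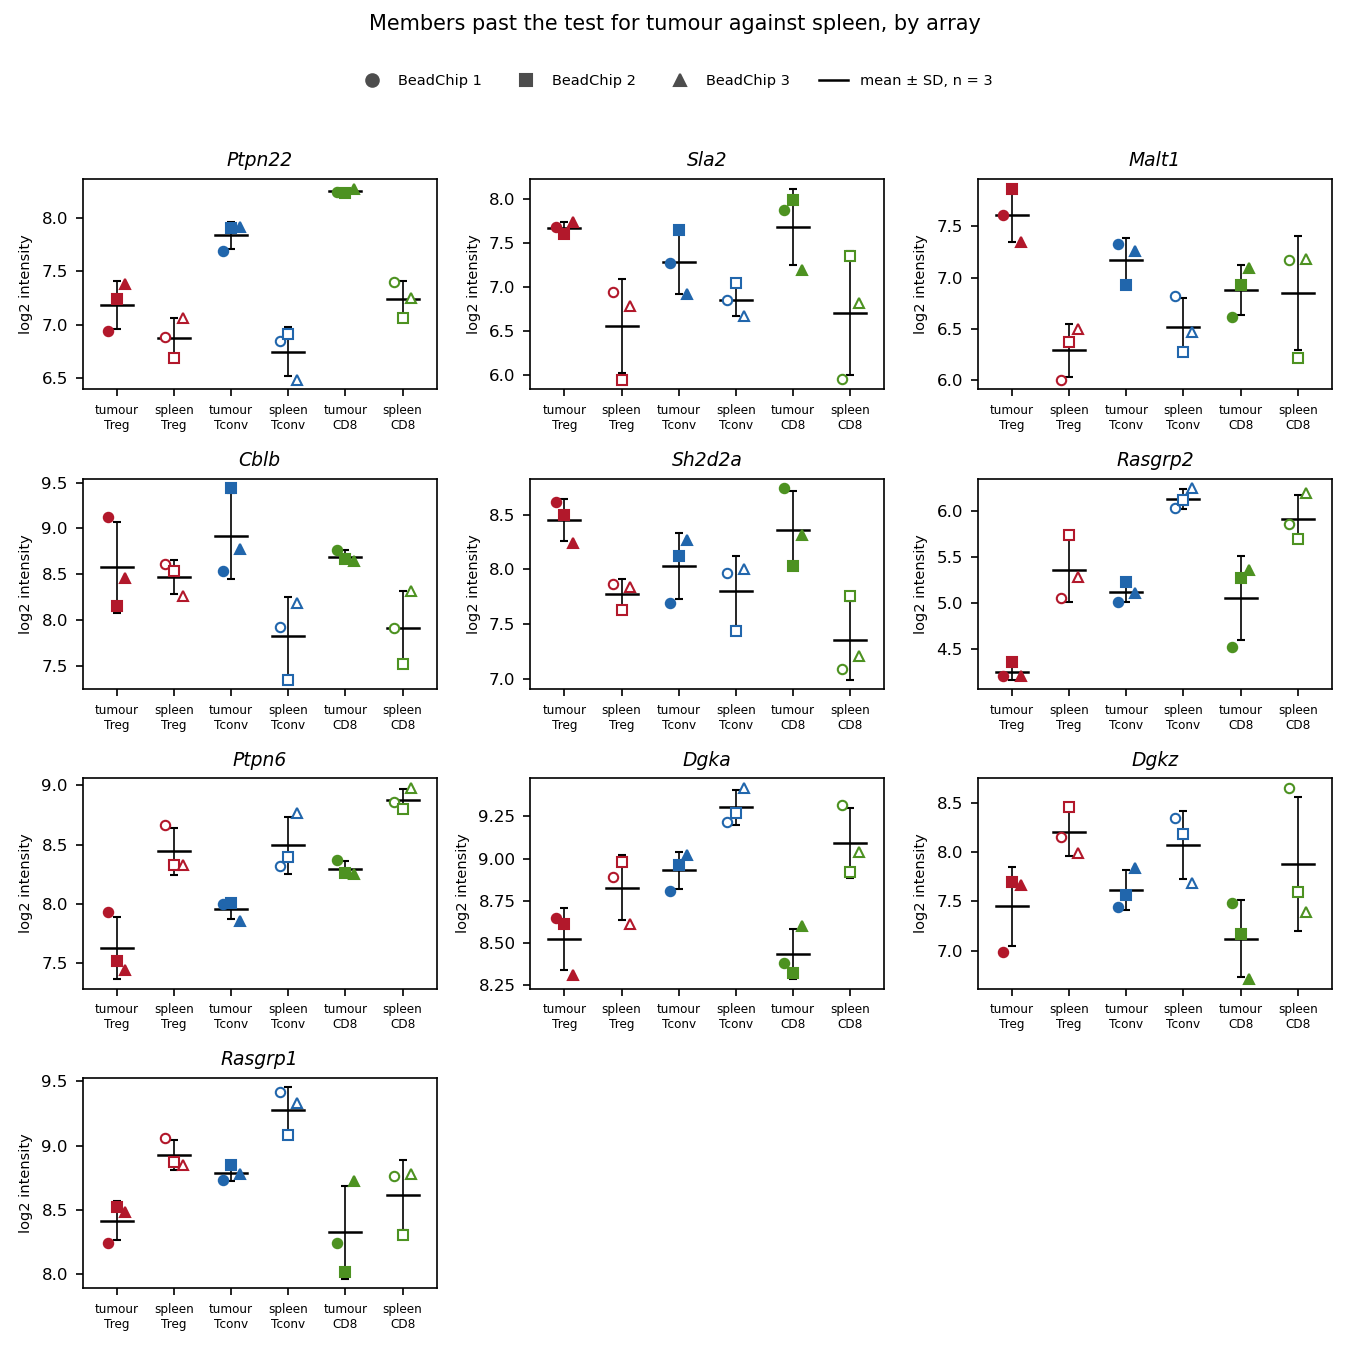
Log2 intensity (vertical axis) on each array of the 10 members whose mean over the populations differed between tumour and spleen, with mean ± SD of 3 arrays and a symbol for each BeadChip. The tumour arrays of Rasgrp2 and Ptpn6 lie below the spleen arrays in all 3 populations, and those of Ptpn22 above them in CD8 and Tconv.

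Ubash3b, which encodes the phosphatase STS-1, was higher in tumour Treg, at 6.57, 6.57 and 6.65, against 5.57, 5.83 and 5.79 in tumour Tconv. The groups were apart by 0.86 ± 0.21 (adjusted p = 0.0419), but the call ended without any 1 of the 6 arrays (adjusted p up to 0.163) and under median scaling (adjusted p = 0.0536). In spleen, at 5.74, 5.92 and 6.64 in Treg against 6.14, 5.66 and 6.29 in Tconv, the groups overlapped. Pag1, which brings CSK to the membrane, had 4.86, 4.84 and 5.02 in spleen Treg, against 6.74, 6.06 and 6.47 in spleen Tconv, a difference of -1.51 ± 0.37 just outside the threshold (adjusted p = 0.0578, and 0.0227 in a fit of only these arrays). In tumour its Treg arrays, at 5.28, 5.30 and 5.05, also lay below Tconv, at 6.44, 6.57 and 5.92, without passing (adjusted p = 0.167).

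Other inhibitors did not pass in any comparison. Csk, the kinase that puts the inhibitory phosphate on Src kinases, differed between tumour and spleen by -0.36 in Treg, -0.45 in CD8 and -0.09 in Tconv, each ± 0.27. Cd6, a surface receptor of T cells that recruits phosphatases and adaptors, had 10.94, 10.91 and 10.89 in tumour Treg, against 10.76, 10.61 and 10.60 in spleen Treg, and its mean difference was 0.27 ± 0.08 (adjusted p = 0.0831). Sit1, a transmembrane adaptor, differed by 0.07, 0.57 and -0.26, and Ubash3a, a relative of Ubash3b, by -0.12, -0.11 and 0.20.

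**Figure D4:**
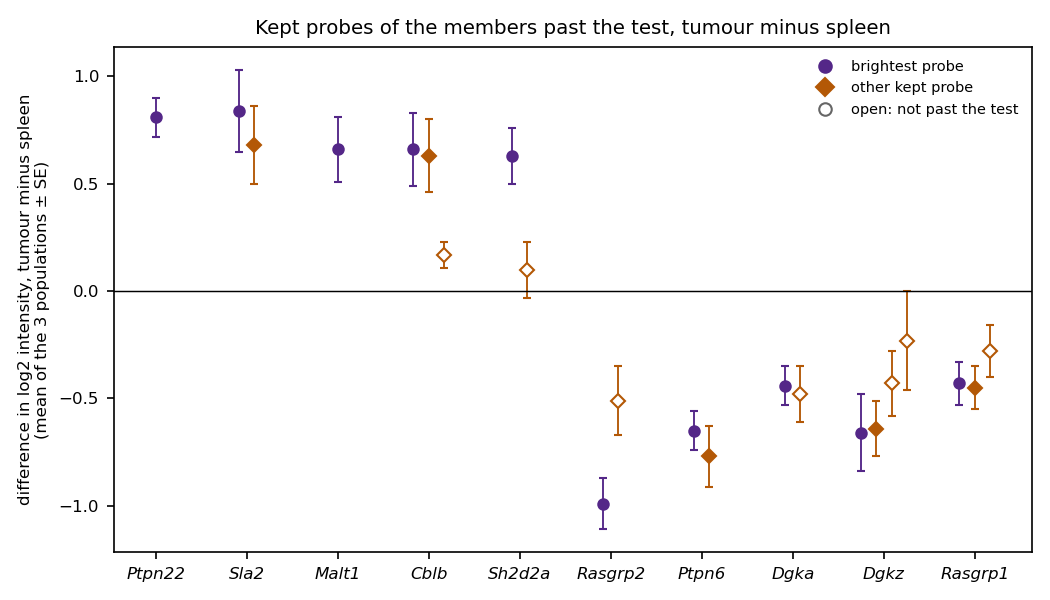
Tumour minus spleen difference in log2 intensity, as the mean of the 3 populations ± SE (vertical axis), for every kept probe of the 10 members past the test, with filled symbols past the test in a fit of all kept probes. A second probe passed in the same direction for Sla2, Cblb, Ptpn6, Dgkz and Rasgrp1, while Ptpn22 and Malt1 had only 1 kept probe.

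Between the populations, 4 of 41 genes passed for Treg against Tconv in tumour (9.76%, against 2.72% of all genes) and 1 in spleen (2.44%, against 1.60%). For CD8 against Tconv, 1 passed in tumour (2.44%, against 0.521%) and 2 in spleen (4.88%, against 0.816%). In tumour Treg 1 was higher and 3 were lower than in Tconv, against 1.90% and 0.823% of all genes, and in spleen Treg 0 were higher and 1 lower, against 1.09% and 0.508%. In CD8 against Tconv 0 were higher and 1 lower in tumour, against 0.309% and 0.213%, and 0 higher and 2 lower in spleen, against 0.528% and 0.288%. Arrays did not overlap for 16 genes (39.0%, against 17.7%) and 15 (36.6%, against 15.6%) in the Treg comparisons and for 12 (29.3%, against 12.8%) and 9 (22.0%, against 12.7%) in the CD8 comparisons. These comparisons share the Tconv arrays with each other and the tumour or spleen arrays with those above.

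Whether tumour and spleen differed by the same amount in Treg as in Tconv, and in CD8 as in Tconv, was tested directly, while Treg against CD8 was not tested. For Treg against Tconv, 0 of the 41 genes passed limma's test of that difference, against 0.137% of all genes (0.0686% higher and 0.0686% lower), and 4 had an unadjusted p under 0.05. For CD8 against Tconv, 0 passed, against 0.0411% (0.0137% higher and 0.0274% lower), and 3 had an unadjusted p under 0.05. The difference was -0.87 ± 0.20 for Nfatc1 (adjusted p = 0.132) and -0.79 ± 0.22 for Ptpn22 (adjusted p = 0.282) in Treg against Tconv. In CD8 against Tconv it was -0.86 ± 0.29 for Trat1 (adjusted p = 0.722) and 0.78 ± 0.32 for Sh2d2a (adjusted p = 0.836).

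Of 61 further genes of the pathway, 54 were measured. In the mean of the populations 1 rose and 1 fell, which is 3.70% of them, against 5.21% of all genes. Dok2, an adaptor that recruits a Ras inhibitor, rose by 0.70 ± 0.17 (adjusted p = 0.0256). Ikbkb, a kinase of the NF-kappaB pathway, was lower in tumour by -0.38 ± 0.10 (adjusted p = 0.0489). In single populations 0 of 54 passed in Treg, with 8 at an unadjusted p under 0.05, 0 passed in Tconv, with 5, and 1 passed in CD8 (1.85%), against 2.44%, 1.19% and 1.17% of all genes in Treg, Tconv and CD8.

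That gene was Vav3, an exchange factor related to Vav1. It had 6.69, 6.64 and 6.97 in tumour CD8, against 5.19, 5.14 and 5.79 in spleen CD8, a rise of 1.39 ± 0.31 (adjusted p = 0.0458). The spleen CD8 arrays also lay below spleen Tconv, at 7.33, 6.26 and 6.95, by -1.47 ± 0.31 (adjusted p = 0.0421). Itpr2, a calcium channel of the endoplasmic reticulum, was lower in spleen CD8, at 6.04, 7.25 and 7.35, against 8.10, 8.61 and 8.31 in spleen Tconv (-1.46 ± 0.27, adjusted p = 0.0195). Mapk14, which encodes the kinase p38 alpha, was lower in tumour Treg, at 7.64, 7.74 and 7.45, against 8.32, 8.34 and 8.37 in tumour Tconv (-0.74 ± 0.16, adjusted p = 0.0162).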

How the data were processed

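Expression was measured on 18 arrays, 3 in each of 6 groups. The deposited table holds a bead intensity and a detection p-value for each of 46237 probes on each array, and from its column medians of 79 to 88.1 it is not normalized. A second table of intensity that the authors deposited looks linear and normalized (column medians 83.5 to 85.9); how it was made is not stated in the labels. The number of arrays limits the precision.

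In R 4.3.3, limma 3.58.1 was run. Its neqc function estimated the background by means of the detection p-values, and after an offset of 16 the signals were quantile-normalized and put on the log2 scale. The offset compresses differences of dim genes. Probes were named by the platform table, updated through RefSeq (35784 with 1 name, 10453 with none), kept if detected on at least 3 arrays (22409 named), and each gene was given by its kept probe with the highest mean. Limma was fitted to all 18 arrays with a mean for each group and 12 residual degrees of freedom, with Benjamini-Hochberg adjustment over 14581 genes and a threshold of 0.05. The script was tested on simulated data.

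The members and gene lists were chosen with earlier results of these data known. Every measured member is named, with lineage genes, wider-pathway genes past the threshold and at most 3 defining genes of other cell types, whose lists (T cell, CD4, CD8, Treg, macrophage, melanoma, B cell, erythroid, neutrophil and NK cell) served as checks. In the T cell list 1 of 7 genes rose in the mean of the populations and 0 fell.

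Replicate numbers mark BeadChips per the labels, which pairs the arrays. The residuals of same-numbered arrays had a mean correlation of 0.0424, and 5 of 45 pairs exceeded 0.1, against -0.0208 for different numbers. Alternatives changed the background correction, scaling, filter, probe choice, source of values, block and arrays fitted. Those with every probe as a row and with the scaling median over all probes were added after the data were seen. Promoter windows came from RefSeq, GRCm38.p6.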

Additional observations from a re-analysis of the deposited data

Results flagged for a closer look

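Nfatc1, which encodes a transcription factor activated by the calcium signal of the receptor, differed between tumour and spleen by -0.55 in Treg and by 0.32 in Tconv. It was singled out because every tumour Treg array lay below every spleen Treg array while every tumour Tconv array lay above every spleen Tconv array. The difference between these effects was tested and did not pass (-0.87 ± 0.20, adjusted p = 0.132). Of the 5 other kept Nfatc1 probes, those with means of 6.92 and 7.24 had differences between the effects of 0.27 ± 0.27 and 0.29 ± 0.28, and the one with a mean of 7.66 had -0.79 ± 0.35, none past the test.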

How the results depend on the processing

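Each call on a single member was recomputed under the alternatives, where 174 values kept direction and call and 50 kept only the direction, and with arrays left out, where 236 kept both and 118 only the direction. No call reversed. The count of members past the test moved by over 1.5 times as follows. Median scaling gave 1 in Tconv and 1 in CD8 for tumour against spleen. With its median over all probes, chosen after seeing the data, tumour against spleen gave 5 in Treg, 0 in CD8 and 0 in Tconv, Treg against Tconv 2 in tumour and 0 in spleen, and CD8 against Tconv 1 in spleen. The filter for all 3 arrays of a group gave 2 for Treg against Tconv in spleen, and no filter gave 2 in tumour. The mean of kept probes gave 5 for tumour Treg against spleen Treg, 2 for Treg against Tconv in spleen, and 2 in tumour and 1 in spleen for CD8 against Tconv. Fits of only the groups compared gave 1 in Treg, 0 in CD8 and 1 in Tconv for tumour against spleen, 2 in tumour and 3 in spleen for Treg against Tconv, and 0 for CD8 against Tconv in spleen. For the mean of the populations, this alternative is the same fit as the reported one. The counts over all genes moved as well. Fits of only the groups compared gave 253 genes in Treg, 15 in CD8 and 69 in Tconv for tumour against spleen. The reported fit gave 356, 170 and 173. With the scaling median over all probes, 629, 108 and 98 genes passed. The replicate block gave 2 for Treg against Tconv in spleen (Themis and Tec), ended the calls of Sh2d2a and Dgka in CD8, Dgkz in the mean and Ptpn22 between tumour Treg and Tconv, added Nfatc1 in Treg and Rasgrp2 in CD8, and changed no other call. The cause was not tested.

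With single arrays or 1 replicate number left out, the counts ran from 0 to 3 in Treg, 0 to 3 in CD8, 0 to 1 in Tconv and 3 to 10 in the mean. They ran from 0 to 3 and 0 to 1 for Treg against Tconv in tumour and spleen, 1 to 1 and 0 to 2 for CD8 against Tconv, and stayed at 0 for both differences between effects. Over all genes, tumour Treg against spleen Treg had 88 to 333 calls with arrays left out and 253 to 629 under the other alternatives, against 356 as reported. In the same order, CD8 had 56 to 182 and 15 to 173, against 170. Tconv had 36 to 139 and 69 to 205, against 173, and the mean 311 to 746 and 654 to 866, against 760. Treg against Tconv had 132 to 351 and 185 to 716 in tumour, against 397. In spleen it had 64 to 187 and 140 to 249, against 233. CD8 against Tconv had 20 to 78 and 27 to 87 in tumour, against 76. In spleen it had 34 to 127 and 24 to 122, against 119. Genes near the floor, such as Rasgrp2 in tumour Treg, Plcg1 and Sos1, have compressed differences.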
